A study of Mus musculus with 6 samples.

Results

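The resident macrophage genes are 10 genes picked by symbol from the 54838 mouse gene identifiers counted in every library: Adgre1, Csf1r, C1qa, C1qb, C1qc, Cd68, Mrc1, Cx3cr1, Lyz2 and Ptprc. All 10 were found and all 10 passed the filter on low counts. RNA came from glomeruli, the capillary tufts that filter blood in the kidney, of 3-week-old mice. The group labelled CTRL (animals 157, 162 and 163) had a wild type genotype, and the group labelled KO (animals 146, 147 and 148) had a bPIX -/- genotype restricted to podocytes, the epithelial cells of the glomerulus. bPIX is the product of Arhgef7, which activates Cdc42 and Rac1. The sources used here give neither the promoter that drove the deletion, nor the strain, nor the way glomeruli were isolated. Each file deposited for a sample labelled CTRL carries the name of a KO animal and each file of a sample labelled KO that of a CTRL animal. Groups follow the sample labels here, and every direction below would turn around, with its size kept, if the file names were the correct ones.

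Gene counts ran from 39841396 to 51917945 per library. The library of KO 146 stood apart, with a chi-square per degree of freedom of 176 and 299 against the other KO-labelled libraries, where pairs within the group labelled CTRL gave 16.7 to 18.4. The targeted gene does not separate the groups, with 88.4 to 94.0 CPM of Arhgef7 in CTRL-labelled libraries and 85.8 to 133 in KO-labelled libraries. CPM is the count scaled to a common library size (TMM). Podocyte markers were higher in KO-labelled libraries, with sums of 859 to 1050 CPM in CTRL-labelled libraries and 2050 to 7680 in KO-labelled libraries. Tubule markers were abundant everywhere and lower in KO-labelled libraries. Those of the proximal tubule summed to 35100 to 36700 CPM in CTRL-labelled libraries and 16500 to 28100 in KO-labelled libraries. Macrophage RNA therefore cannot be assigned to glomeruli or to the tissue around tubules.

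Resident macrophages settle in the kidney early in life and lie mostly in the interstitium around tubules, with few inside the glomerulus. They live on signals through the receptor CSF1R, whose ligands are CSF1 and IL-34, and many carry the fractalkine receptor CX3CR1. They take up debris and immune complexes, digest them in lysosomes, and secrete the chains of complement C1q. The transcription factor PU.1, encoded by Spi1, binds purine-rich sites near many myeloid genes.

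Promoter sequence is shown because the C1q genes shared a pattern across the libraries and Mrc1 had another. The RefSeq promoter table (GRCm38.p6) held 8 promoters of 7 of the genes, and none of Adgre1, Csf1r or C1qa. The 250 bases before each start were searched on both strands for AGGAAGT, a form of the PU.1 site chosen after the sequences were seen. It was found in 6 of the 8 promoters, those of 5 genes, and in 7.69% of all 32851 promoters in the table. Because the form was chosen on these promoters, their share cannot be compared with that of the whole table. The promoters of Ptprc overlap and share the same match, 58 and 237 bases before their starts, which is not printed below. The longer form GAGGAAGT, which contains it, was found in 1 of the 8, that of C1qc, and in 2.44% of all. Capitals mark the match in the stretches below, each read 5′ to 3′ along the gene, so that ACTTCCT is the match on the other strand.
C1qb, chr4:136886227-136886273, minus strand, match beginning 53 bases before the start: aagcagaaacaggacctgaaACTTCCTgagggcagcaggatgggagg
C1qc, chr4:136893083-136893129, minus strand, 195 bases before: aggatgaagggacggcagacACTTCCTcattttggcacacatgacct
Mrc1, chr2:14229183-14229229, plus strand, 211 bases before: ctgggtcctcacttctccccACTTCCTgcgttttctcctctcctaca
Lyz2, chr10:117282346-117282392, minus strand, 100 bases before: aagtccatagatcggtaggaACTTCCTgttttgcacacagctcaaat
Ptprc, chr1:138175392-138175438, minus strand, 113 bases before: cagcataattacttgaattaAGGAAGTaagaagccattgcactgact

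C1qb, C1qc and Mrc1 all carry the match. In KO 146 the C1q genes had their lowest values and Mrc1 its highest. Whether the match bears on these levels was not tested. The letters were not found in the windows of Cd68 and Cx3cr1. A match is a stretch of letters and not a bound site.

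Of the macrophage genes, 9 had overlapping groups, and Mrc1 was the exception. These 9 had log2 fold changes between -0.22 and 0.38, labelled KO minus labelled CTRL. Mrc1 had a log2 fold change of 1.73 and no overlap. None of the 10 was called by edgeR's quasi-likelihood test with Benjamini-Hochberg adjustment over all 17086 tested genes (adjusted p 0.0755 to 0.806), where 1.01% of tested genes were called. At an unadjusted p below 0.05, 1 of the 10 was higher, against 17.5% of tested genes. The groups did not overlap in 1 of the 10, higher in KO-labelled libraries, where 21.9% of tested genes lay apart in that direction and 19.6% in the other. The median log2 fold change was -0.04 over the 10 genes and -0.006 over all tested genes, with 5 of the 10 positive. In bulk RNA, fewer macrophages and less RNA per macrophage cannot be told apart.

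**Figure D1:**
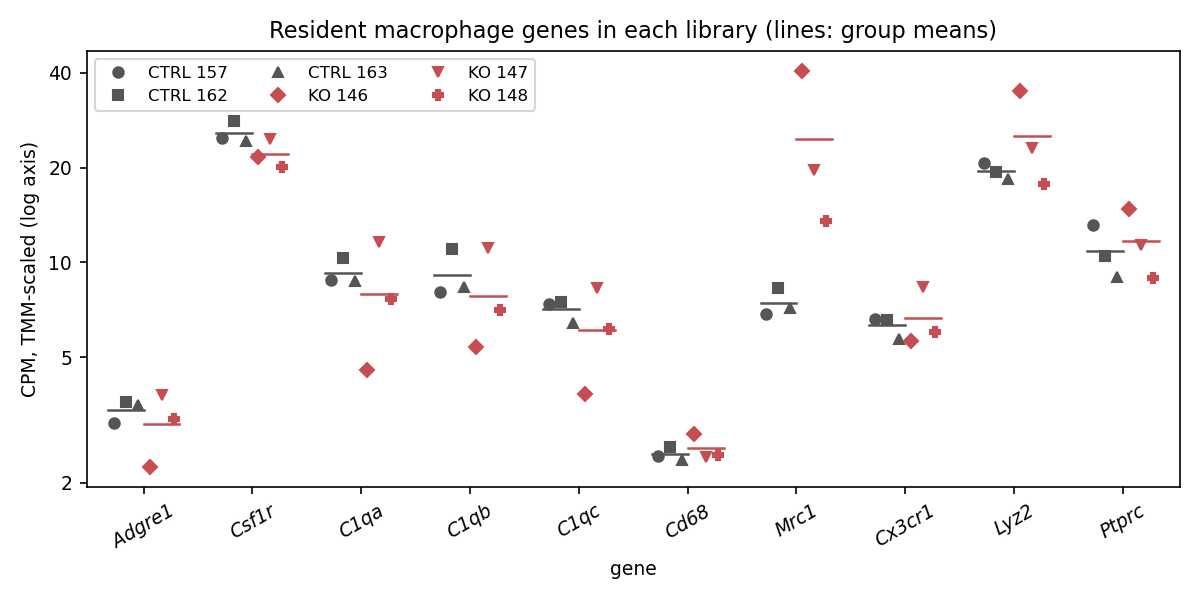
CPM (TMM-scaled, log axis) of the 10 macrophage genes in each of the 6 libraries, grey for CTRL-labelled libraries and red for KO-labelled libraries, with a line at each group mean. Mrc1 alone has all KO-labelled libraries (13.5 to 40.6 CPM) above all CTRL-labelled ones (6.85 to 8.27).

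Csf1r encodes the receptor on which most tissue macrophages depend for survival. It stood at 24.9, 28.1 and 24.3 CPM in CTRL 157, 162 and 163, and at 21.6, 24.7 and 20.1 CPM in KO 146, 147 and 148. KO 147 lay inside the range of CTRL-labelled libraries, and KO 146 and KO 148 lay below it. The log2 fold change was -0.22 (SE 0.11, 95% interval -0.48 to 0.04, edgeR adjusted p = 0.231). Csf1r (ENSMUSG00000024621, chromosome 18, 61100598 to 61132149, plus strand, GRCm38) shares 873 exon bases with Hmgxb3 on the opposite strand, and without a known strand setting reads there cannot be assigned to either gene.

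The ligands of CSF1R did not share a pattern. Csf1 was at 11.6, 12.6 and 13.5 CPM in CTRL-labelled libraries and at 53.1, 27.1 and 21.9 in KO 146, 147 and 148. These groups did not overlap, and the log2 fold change was 1.44 (SE 0.33, edgeR adjusted p = 0.0755). Il34 had overlapping groups, at 12.6 to 16.2 CPM against 11.5 to 16.4, with a value of -0.11 (SE 0.17, edgeR adjusted p = 0.685). Of the 14 genes listed for CSF1R signalling and myeloid transcription factors, 0 were called in either direction, 8 were positive and the median was 0.03. Spi1, which encodes PU.1, stood at 2.93 to 3.55 CPM against 2.24 to 3.84 (log2 fold change 0.03), and Irf8, another myeloid transcription factor, at 13.5 to 17.2 against 14.4 to 15.8 (0.03). Inpp5d, a lipid phosphatase that restrains signalling in blood cells, had a value of 1.35, and Cebpa, a transcription factor of myeloid cells among others, one of -0.60. The adaptors Tyrobp and Fcer1g had values of 0.18 and 0.03.

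Adgre1 (ENSMUSG00000004730, chromosome 17, 57358691 to 57483527, plus strand, GRCm38 here and below) encodes F4/80, the surface protein by which mouse macrophages are usually sorted. Its level was 3.09, 3.60 and 3.52 CPM in CTRL 157, 162 and 163 and 2.25, 3.81 and 3.19 CPM in KO 146, 147 and 148. KO 146 was the lowest library and KO 147 the highest, so the group labelled KO enclosed the other. The log2 fold change was -0.15 (SE 0.22, 95% interval -0.67 to 0.38, edgeR adjusted p = 0.688).

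Cx3cr1 (ENSMUSG00000052336, chromosome 9, 119901616 to 120069879, minus strand) shares 78 exon bases with the antisense gene Gm33858. It had the same order among KO-labelled libraries, with 5.64, 8.37 and 6.0 CPM in KO 146, 147 and 148 and 6.64, 6.59 and 5.71 CPM in CTRL 157, 162 and 163. Again KO 147 was highest and KO 146 lowest of the 6 libraries. Its log2 fold change was 0.08 (SE 0.18, 95% interval -0.36 to 0.52, edgeR adjusted p = 0.801). Its ligand gene Cx3cl1 was at 51.9 to 58.7 CPM in CTRL-labelled libraries and 60.6 to 83.6 in KO-labelled libraries, a difference of 0.32 (SE 0.14, edgeR adjusted p = 0.178). Among 12 chemokine and chemokine receptor genes, 9 were tested, 0 were called and the median was -0.15. Ccr1 had the smallest unadjusted p (0.0383, log2 fold change 1.17) at no more than 0.682 CPM, and Ccl6 had a value of 0.27. Ccl2, the main attractant of monocytes, did not pass the filter and reached 0.163 CPM at most.

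The C1q chains are secreted by macrophages and assemble, with the proteases C1r and C1s, into the complex that starts the classical complement cascade. C1qa stood at 8.80, 10.3 and 8.74 CPM in CTRL 157, 162 and 163 and at 4.57, 11.6 and 7.65 CPM in KO 146, 147 and 148. C1qb was at 8.08, 11 and 8.35 CPM against 5.38, 11.1 and 7.06, and C1qc at 7.38, 7.48 and 6.43 against 3.84, 8.27 and 6.16. In all 3 genes KO 147 held the highest value of the 6 libraries and KO 146 the lowest. The log2 fold change was -0.22 for each of the 3, with 95% intervals of -0.98 to 0.53, -0.89 to 0.45 and -0.87 to 0.42 and edgeR adjusted p values of 0.666, 0.627 and 0.609. Without KO 146 C1qa was at 0.05, C1qb at -0.01 and C1qc at 0.02, and without KO 147 they were at -0.61, -0.56 and -0.51. The summed C1q level was 24.3, 28.7 and 23.5 CPM in CTRL-labelled libraries and 13.8, 31.1 and 20.9 in KO-labelled libraries.

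The C1q genes lie side by side on the minus strand of chromosome 4 (GRCm38), C1qb at 136880129 to 136886187, C1qc at 136889804 to 136893065 and C1qa at 136895917 to 136898803. Per kilobase of transcript, C1qa made up 35.1% to 39.6% of the C1q RNA across the 6 libraries, C1qb 33.7% to 39.5% and C1qc 23.7% to 27.9%. The shares of the chains therefore stayed within a few percentage points while their sum ran from 13.8 to 31.1 CPM.

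The partners and receptors of C1q were less even than the chains. Of 12 genes on this list 11 were tested, 0 were called in either direction, 6 were positive and the median was 0.08. C1s1, a protease of the C1 complex, was at 8.45 to 9.26 CPM in CTRL-labelled libraries and 15.0 to 45.5 in KO-labelled libraries (log2 fold change 1.65, SE 0.39, edgeR adjusted p = 0.0755). Lrp1, an endocytic receptor, was at 20.1 to 24.8 against 43.2 to 144 CPM (1.97, SE 0.42, edgeR adjusted p = 0.0753). Among KO-labelled libraries C1s1 and Lrp1 were highest in KO 146 and lowest in KO 148. The means of the podocyte, endothelial and mesangial markers had the same order, and the part of tissue content in these differences was not tested. C3, the central complement component, had the opposite sign, at 10.7 to 13.5 against 6.94 to 7.69 CPM (-0.70, SE 0.13, edgeR adjusted p = 0.0655).

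Lyz2 (ENSMUSG00000069516, chromosome 10, 117277331 to 117282321, minus strand) encodes lysozyme M, an antibacterial enzyme of macrophages, monocytes and neutrophils. It stood at 20.6, 19.4 and 18.4 CPM in CTRL 157, 162 and 163 and at 35.0, 23.1 and 17.7 CPM in KO 146, 147 and 148. KO 146 was the highest library and KO 148 the lowest. The log2 fold change was 0.38 (SE 0.24, 95% interval -0.19 to 0.95, edgeR adjusted p = 0.325). It was 0.06 without KO 146 and 0.58 without KO 148. Lyz2 has a close copy, Lyz1, which was counted 1 to 11 times per library, and reads aligned to several places were not assigned to genes in these files.

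Cd68 (ENSMUSG00000018774, chromosome 11, 69664213 to 69666153, minus strand) encodes a lysosomal membrane glycoprotein of macrophages. Its level was 2.44, 2.6 and 2.37 CPM in CTRL 157, 162 and 163 and 2.86, 2.41 and 2.46 CPM in KO 146, 147 and 148. KO 146 was the highest and the other KO-labelled libraries lay within the range of CTRL-labelled libraries. The log2 fold change was 0.06 (SE 0.16, 95% interval -0.31 to 0.44, edgeR adjusted p = 0.806). Lysosomal genes that tubule cells also make had 2 of 12 positive values, a median of -0.17 and 0 calls, with the lysosomal hydrolase gene Hexa at 0.33 and the membrane protein gene Lamp2 at -0.34.

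Ptprc (ENSMUSG00000026395, chromosome 1, 138062861 to 138175708, minus strand) encodes CD45, the phosphatase on the surface of all leukocytes. It was at 13.1, 10.5 and 8.99 CPM in CTRL 157, 162 and 163 and at 14.8, 11.4 and 8.95 CPM in KO 146, 147 and 148. The spread within each group was wider than the gap between the means, and the highest and the lowest library were both labelled KO. Its log2 fold change was 0.11 (SE 0.22, 95% interval -0.41 to 0.63, edgeR adjusted p = 0.764).

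Mrc1 (ENSMUSG00000026712, chromosome 2, 14229392 to 14332057, plus strand) encodes the mannose receptor CD206, which clears glycoproteins from tissue fluid. It is a marker of resident macrophages that some endothelial cells also express, and in mouse kidney it has been reported on mesangial cells. Its raw counts were 295, 315 and 317 for CTRL 157, 162 and 163, and 2397, 818 and 612 for KO 146, 147 and 148. These counts are 6.85, 8.27 and 7.16 CPM against 40.6, 19.7 and 13.5 CPM. All KO-labelled libraries lay above all CTRL-labelled ones, and within the group KO 146 was by far the highest. The log2 fold change was 1.73 (SE 0.39, 95% interval 0.79 to 2.67, edgeR adjusted p = 0.0755).

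The Mrc1 difference passed the threshold in some alternative fits and missed it in others. It was 1.74 in DESeq2 (Wald test, adjusted p = 2.45e-04), which called 17.3% of all tested genes. Without KO 146 it was 1.15 (edgeR adjusted p = 0.00584) and without KO 148 it was 2.02 (edgeR adjusted p = 0.0147), in fits that called 17.2% and 18.3% of tested genes. With any other library left out the edgeR adjusted p lay between 0.139 and 0.264, and over all alternatives it ran from 2.45e-04 to 0.588.

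**Figure D2:**
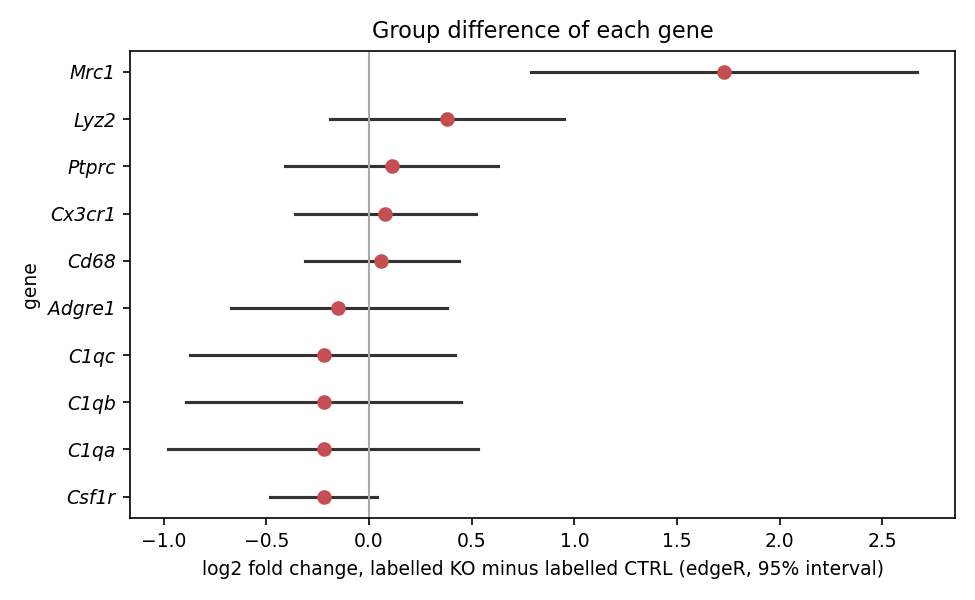
Log2 fold change of each macrophage gene, labelled KO minus labelled CTRL, from edgeR, with its 95% interval as a bar. The interval of Mrc1 (0.79 to 2.67) lies above 0 and those of the other 9 genes include 0.

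Mrc1 was highest in KO 146 and lowest in KO 148 of the KO-labelled libraries, as were the markers of glomerular cells. Lyz2, Ptprc and the lists of leukocyte, monocyte and neutrophil genes had that order too, with smaller differences. Relative to the mean of CTRL-labelled libraries, Mrc1 was higher by 2.45, 1.41 and 0.86 on the log2 CPM scale in KO 146, 147 and 148. The mean of 12 endothelial markers was higher by 2.52, 1.39 and 0.80 in the same libraries, that of 11 mesangial and smooth muscle markers by 2.64, 1.26 and 0.81, and that of 12 podocyte markers by 2.95, 1.65 and 1.03. Lyz2 stood at 0.85, 0.25 and -0.14 and Ptprc at 0.46, 0.08 and -0.26. The mean of the 9 macrophage genes other than Mrc1, which holds values of both signs, was -0.23, 0.19 and -0.19. The leukocyte, monocyte and neutrophil lists had means of 0.56, 0.26 and -0.17, of 0.52, 0.21 and -0.19, and of 1.58, 0.64 and 0.24. The mean of 16 proximal tubule markers stood at -1.05, -0.51 and -0.33.

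**Figure D3:**
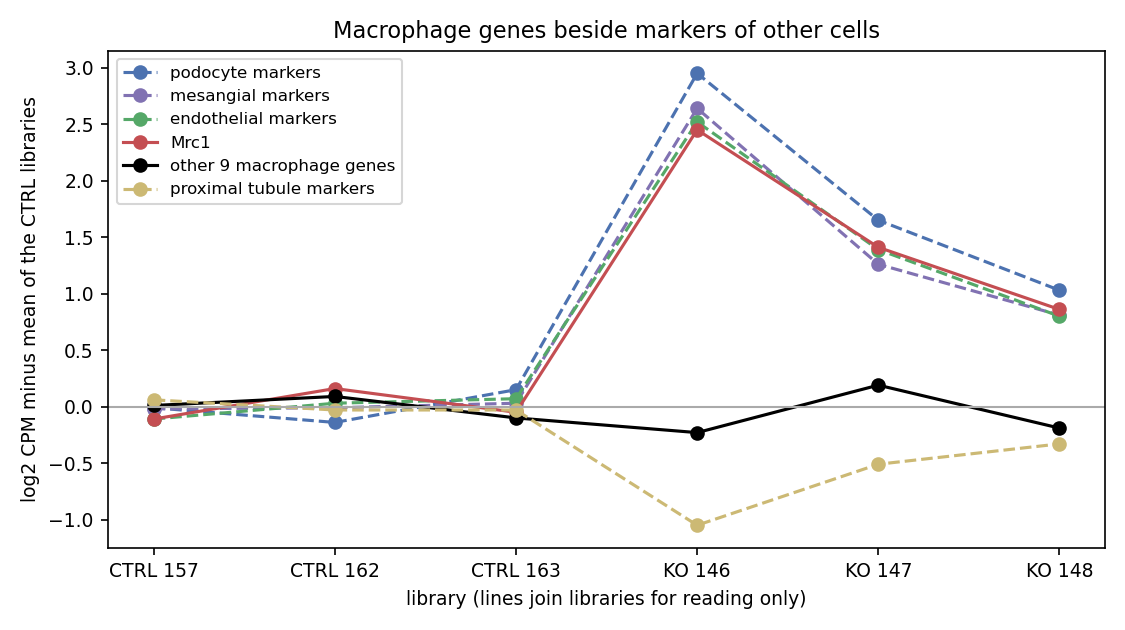
Log2 CPM minus the mean of CTRL-labelled libraries, by library, for Mrc1, the mean of the other 9 macrophage genes and the means of 4 marker lists. In KO 146 Mrc1 is at 2.45 and the other 9 macrophage genes at -0.23.

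All 12 endothelial markers and all 11 mesangial markers were positive, with summed levels of 803 to 945 and 292 to 304 CPM in CTRL-labelled libraries and of 1620 to 5430 and 560 to 2040 CPM in KO-labelled libraries. Plat, Emcn and Ehd3 had the smallest unadjusted p values of the endothelial list (log2 fold changes 2.19, 1.74 and 1.98), and Sfrp2, Pdgfrb and Pdgfra those of the mesangial list (2.47, 2.35 and 2.06). With the mean of these lists as a covariate the Mrc1 difference was 0.19 (edgeR adjusted p = 0.588), and with the proximal tubule mean in its place it was 0.23 (edgeR adjusted p = 0.504). Neither marker mean overlapped between the groups, so these fits separate group and content poorly. Lymphatic endothelial markers were sparse, with Ccl21a at 0 in every library and Lyve1 at no more than 0.564 CPM. Flt4, a receptor of lymphatic and fenestrated endothelium, had a value of 1.71, and Prox1, a transcription factor of lymphatic endothelium, one of -0.14.

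Ratios between macrophage genes within a library showed the same contrast. The log2 ratio of Mrc1 to Csf1r was -1.86, -1.76 and -1.76 for CTRL 157, 162 and 163, against 0.91, -0.32 and -0.58 for KO 146, 147 and 148. The group means differed by 1.79, with no overlap (exact two-sided permutation p = 0.1, the smallest that 3 against 3 allows, adjusted over 9 ratios 0.45). Lyz2 to Csf1r also lay apart, at -0.40 ± 0.13 against 0.14 ± 0.49 (SD, n = 3 each, exact permutation p = 0.1, adjusted 0.45), a difference of 0.54. That difference was 0.26 without KO 146 (exact permutation p = 0.2) and 0.23 with Ptprc in place of Csf1r (exact permutation p = 0.3), where the groups overlapped. The other 7 ratios overlapped, and their group means differed by -0.09 to 0.32 (exact permutation p 0.2 to 1). The ratio of Mrc1 to the summed C1q level was 0.282 to 0.304 in CTRL-labelled libraries and 2.94, 0.635 and 0.645 in KO 146, 147 and 148.

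**Figure D4:**
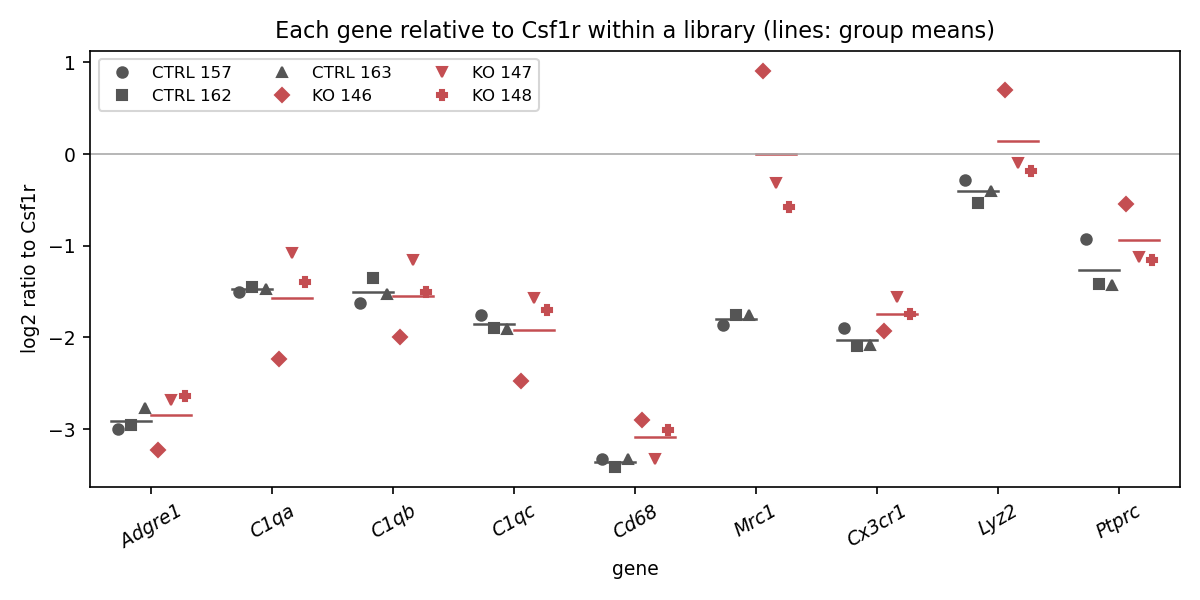
Log2 ratio of each gene to Csf1r within each library, on the scale of log2 CPM, with lines at group means. Mrc1 lies between -1.86 and -1.76 in CTRL-labelled libraries and between -0.58 and 0.91 in KO-labelled libraries.

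Compared per kilobase of the longest protein-coding transcript, Lyz2 was the most abundant of the 10 genes, at 14.8 ± 0.844 CPM per kilobase in CTRL-labelled libraries and 19.2 ± 6.75 in KO-labelled libraries (SD, n = 3 each). C1qa, C1qb, C1qc and Csf1r followed in that order of means in both groups, at 8.91, 8.40, 5.90 and 5.48 in CTRL-labelled libraries. C1qa and C1qb did not differ beyond their spread (SD 0.829 and 1.48), nor did C1qc and Csf1r (SD 0.480 and 0.436). Ptprc (2.14), Cd68 (2.01), Cx3cr1 (1.41) and Mrc1 (1.38) came next, and neighbours among them lay within their spread, apart from the step from Cd68 to Cx3cr1. Adgre1 was lowest at 1.05. In KO-labelled libraries, Mrc1 stood sixth at 4.58 ± 2.64 and Adgre1 again lowest at 0.952 ± 0.242. The order depends on the length used. Per kilobase of all annotated exons, Ptprc was lowest in both groups, at 0.593 and 0.639, and C1qc (3.68) stood below Csf1r (4.46) in CTRL-labelled libraries. On that scale Mrc1 stood just above Csf1r and C1qc in KO-labelled libraries, at 3.86 against 3.83 for Csf1r and 3.15 for C1qc.

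No other macrophage marker on the list chosen for them was called either. Of 24 genes 22 were tested, 0 were called, 14 were positive and the median was 0.21. Here and for the lists below, a gene that was not called may still differ. The podocyte, endothelial and mesangial lists also had 0 calls, at median log2 fold changes of 2.09, 1.74 and 2.01. Mpeg1, which encodes a pore-forming protein of phagocytes, stood at 12.9 to 16.3 CPM in CTRL-labelled libraries and 12.3 to 15.1 in KO-labelled libraries (-0.10), and the protease gene Ctss at 9.31 to 9.92 against 7.17 to 10.8 (-0.08). The genes with the smallest unadjusted p were Cd163, the haemoglobin scavenger receptor (1.37, SE 0.33), Tlr7, a sensor of RNA (1.47, SE 0.42), and Mertk, a receptor for dying cells (0.94, SE 0.35), with edgeR adjusted p values of 0.0757, 0.0863 and 0.141. Cd163 was at 0.302 to 0.420 CPM against 0.594 to 1.2. Cd163, Tlr7 and Mertk were all highest in KO 146, as were Mrc1 and the means of the podocyte, endothelial and mesangial markers. Ctss and Mpeg1 are named after their values were seen. Of 15 activation genes 10 were tested and 0 called, 6 were positive and the median was 0.10. Nos2 stood at 2.33, Arg1 at 1.53 and Tgfb1 at 1.40, and the negative values were those of Cxcl9 (-0.76), Cd86 (-0.37), Mgl2 (-0.25) and Ptgs2 (-0.24), named after they were seen. The inflammatory genes Tnf, Il6 and Il12b did not pass the filter.

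Of the tested markers of other leukocytes, edgeR called 0. Genes of all leukocytes had 11 of 13 positive values and a median of 0.17, with Cd53, Was and Hcls1 at 0.61, 0.67 and 0.55. Their summed level was 75.7 to 89.3 CPM in CTRL-labelled libraries and 115, 94.6 and 71.3 in KO 146, 147 and 148. The monocyte list had a median of 0.23 (Treml4 0.79, Itgal 0.48, Plac8 0.18) and the B cell list one of 0.34 (Ighm 0.33, Ms4a1 0.45, Cd79b 0.38). For T and NK cells the median was -0.10, with Cd8a at -1.86, Cd3g at -0.56 and Il7r at -0.31, and Cd8a reached 21.3 CPM in CTRL 163 against 1.98 to 4.83 in the other libraries. Dendritic cell genes had a median of -0.16, although Clec9a and Zbtb46 stood at 1.60 and 1.51, with Siglech at -0.85. Only 4 of 12 neutrophil genes were tested, with Ltf, S100a8 and S100a9 at 2.18, 0.82 and 0.71, and their list summed to at most 3.44 CPM in CTRL-labelled libraries and 10.5 in KO-labelled libraries. Lyz2, which neutrophils and monocytes also make, was highest in KO 146, the library with the highest neutrophil and monocyte sums (10.5 and 33.6 CPM). Ltf alone made up 5.1 CPM of that neutrophil sum and S100a9 1.76, while Mpo and Elane were at 0 in KO 146. The part of neutrophils and monocytes in the level of Lyz2 was not tested.

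The list of red cell genes differed among CTRL-labelled libraries, summing to 747, 800 and 190 CPM in 157, 162 and 163. It summed to 618, 470 and 341 CPM in KO 146, 147 and 148, with Hba-a1 at -0.46. Slc4a1 (-0.41) did not follow this sum, at 74.5, 61.9 and 68.9 CPM in CTRL 157, 162 and 163. Its value therefore cannot be read as one of red cells. Markers of podocytes (Synpo 2.43, Nphs1 2.35) were all positive. Those of the proximal tubule (Slc7a13 -0.97, Slc13a1 -0.88, Slc27a2 -1.02) and distal nephron (Aqp3 -0.63, Aqp2 -0.52, Slc26a4 -0.63) were all negative. Of 10 proliferation genes edgeR called 8 higher, against 0.591% of all tested genes called in that direction. This list was chosen with earlier results of these data known, so the comparison is a description. Top2a, Cenpf and Prc1 stood at 1.41, 1.56 and 1.60. All 10 proliferation genes stayed positive with any library left out. The number called was 0 without CTRL 157, CTRL 162 or KO 147, 1 without CTRL 163 and 10 without KO 146 or KO 148.

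Among the genes whose log2 CPM followed the mean of the 10 macrophage genes most closely over the 6 libraries were A930006K02Rik (Pearson r = 0.981), Ppp1r26 (0.964), Gm6395 (0.963) and 5330438D12Rik (0.953). These values are descriptions over 6 libraries that share the differences in tissue content above. Of 17076 other tested genes, 17 (0.0996%) reached r = 0.9. The mean joins genes that lay apart, such as Mrc1 at 2.45 and C1qa at -1.01 in KO 146 relative to CTRL-labelled libraries. Likeness to it therefore does not mark a gene as one of macrophages. Gm6395 was also sparse, at a log2 CPM of -1.69 at most.

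Depth was enough to measure each gene in every library. The lowest count was 99 (Cd68 in CTRL 162), for which counting error alone has an SD of 10.1%, and the highest was 2397 (Mrc1 in KO 146), with 2.04%. Scaling by library totals in place of TMM moved the median of all tested genes from -0.006 to 0.131 and that of the 10 macrophage genes from -0.04 to 0.09.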

How the data were processed

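The authors deposited raw read counts per gene, 1 file per library, with no normalization. The tools named, per the submitters' processing notes, are HTSeq 0.11.1, STAR 2.6.0, DESeq2 and fastp 0.19.5, without their roles. As build they give human GRCh37, although all identifiers are those of mouse genes. Strand setting and annotation: not given in the sources used here. The 5 closing lines of each file name no gene, held 28.55% to 35.14% of records (mostly reads aligned to several places) and were left out.

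Symbols, positions and lengths came from GENCODE M21 (GRCm38), which named 54723 identifiers. In R 4.3.3, edgeR 4.0.16 was run with TMM, filterByExpr (minimum count 10) and the robust quasi-likelihood test over all 6 libraries, and genes with a Benjamini-Hochberg adjusted p below 0.05 were called. The SE was taken as |log2 fold change| over the root of F, and intervals use the fit's degrees of freedom. Log2 CPM used a prior count of 2. The fit was tested on simulated data with the same dispersion for every gene and no library standing apart. That test does not show how many differences the fit would miss in these libraries. DESeq2 1.42.0, limma-voom (limma 3.58.1), other scalings, no filter, 2 covariates and leaving out each library were the alternatives. P-values measure the spread between the animals' libraries, 3 per group.

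The macrophage genes and the 20 other lists were chosen with earlier results of these data known. Named besides the macrophage genes are the 3 genes of smallest unadjusted p in each list, the ligands Csf1, Il34 and Cx3cl1, the 5 genes most alike in pattern, and Arhgef7, of which 4 genes are not reported here. Spi1, Irf8, Tyrobp, Fcer1g, Ccl2, Tnf, Il6, Il12b, Lyz1, Ccl21a and Lyve1 were added after their values were seen.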

Additional observations from a re-analysis of the deposited data

How the results depend on the processing

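Of 140 values of the macrophage genes under 14 alternatives, 116 kept direction and side of the threshold, 21 changed sign and 3, all of Mrc1, passed it. The count of called genes, 173, was 960 with no filter, 2959 in DESeq2, 307 with the endothelial and mesangial covariate, and 2 to 3211 with a library left out (CTRL 157, 162 or 163 out: 2, 3 or 10, KO 146, 147 or 148 out: 2974, 2 or 3211). The number of macrophage genes called was 1 in DESeq2 and 0 to 1 with a library left out. Their median was 0.26 with the proximal tubule covariate and 0.24 with the endothelial and mesangial one. With these covariates in turn, Adgre1 had 0.34 and 0.36, C1qa 0.59 and 0.60, C1qb 0.29 and 0.31, C1qc 0.50 and 0.51, Cd68 -0.15 and -0.15, Lyz2 -0.47 and -0.52, and Ptprc -0.44 and -0.50, none called (edgeR adjusted p 0.0979 to 0.832). With a library left out the ranges were -0.33 to 0.03 for Adgre1, -0.61 to 0.05 for C1qa, -0.56 to -0.01 for C1qb, -0.51 to 0.02 for C1qc, -0.02 to 0.11 for Cd68, -0.12 to 0.18 for Cx3cr1, 0.06 to 0.58 for Lyz2 and -0.10 to 0.27 for Ptprc. The cause of these changes was not tested. Of 71 ratio values 62 kept their sign. With Ptprc as the reference the differences were -0.26 for Adgre1, -0.04 for Cd68 and -0.03 for Cx3cr1, and with a library left out the differences from Csf1r ran from -0.05 to 0.24 for Adgre1, -0.34 to 0.24 for C1qa, -0.25 to 0.18 for C1qb and -0.23 to 0.22 for C1qc. No paired analysis was run because the labels name no pairing or batch.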
